A study of Mus musculus with 14 samples.

Results

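Citrate synthase and 8 further genes of the tricarboxylic acid (TCA) cycle were measured in the livers of high-fat-fed mice given mesenchymal stem cells (HFM) and in those given saline (HFS). The members were Cs, Idh3a, Idh3b, Idh3g, Ogdh, Sucla2, Suclg1, Fh1 and Mdh2. Each member was represented by exactly 1 probe set annotated to that gene alone, so the rule that would take the probe set with the highest mean over 14 arrays never had to choose. These are 9 of the 19938 genes with such a probe set.

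The animals were male C57BL/6 mice, 24 weeks old, and all had received the high-fat diet over 20 weeks. The HFM group (n = 7) had received MSCs through the tail vein 24 h before the liver was taken, and the HFS group (n = 7) had received the vehicle, called saline in the labels. No chow-fed liver was analysed here, so both groups share the diet. The MSCs were human bone marrow cells of a single donor, so the comparison covers 1 donor. RNA of each whole liver sample was hybridized to its own GeneChip Mouse Gene 1.0 ST array, a platform that reads many probes along a transcript, and values are log2 expression per probe set.

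The TCA cycle runs in the mitochondrial matrix, where acetyl-CoA from pyruvate and fatty acids is joined to oxaloacetate and oxidized to carbon dioxide, and the electrons pass to the respiratory chain as NADH and through succinate dehydrogenase. In the liver the cycle also supplies intermediates for gluconeogenesis, lipid synthesis and amino acid metabolism. Citrate synthase, which catalyzes the first step, is widely used as a marker of mitochondrial abundance, and the question put to these data is whether the RNAs of that enzyme and of the steps behind it differed between HFM and HFS livers.

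These promoters are shown because they belong to citrate synthase, the entry enzyme, and to the members whose windows held a binding motif of NRF1, a transcription factor of nuclear genes for mitochondrial proteins. Each is the 120 bases before an annotated transcription start in RefSeq (GRCm38.p6), given 5′ to 3′ on the strand of the gene, and capitals mark the motifs found. They come from Cs on the plus strand (chr10:128337607-128337726), Idh3g on the minus strand (chrX:73786898-73787017), Ogdh on the plus strand (chr11:6292438-6292557, 1 of its 6 annotated starts) and Sucla2 on the plus strand (chr14:73552666-73552785).
Cs: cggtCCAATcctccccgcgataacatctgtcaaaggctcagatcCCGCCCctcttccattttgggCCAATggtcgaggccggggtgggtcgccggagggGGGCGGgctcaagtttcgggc
Idh3g: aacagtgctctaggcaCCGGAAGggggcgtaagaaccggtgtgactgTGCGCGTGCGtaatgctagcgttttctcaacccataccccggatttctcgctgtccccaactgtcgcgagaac
Ogdh: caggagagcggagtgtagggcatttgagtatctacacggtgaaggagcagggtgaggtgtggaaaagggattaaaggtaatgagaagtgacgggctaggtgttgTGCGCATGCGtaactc
Sucla2: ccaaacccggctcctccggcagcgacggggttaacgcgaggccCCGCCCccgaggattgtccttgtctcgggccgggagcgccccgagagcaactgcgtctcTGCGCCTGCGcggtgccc

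The motifs were searched on both strands of the 250 bases before each start, and a window was found for 8 of 9 members, with Idh3a named only. The NRF1 motif, which is TGCGC, any base and TGCG in a row, was in windows of 3 members, Idh3g, Ogdh and Sucla2, against 2.89% of the 27025 genes with a window. The ETS and GABP motif CCGGAAG was in Idh3g alone among the members (7.83% of genes), where it lies upstream of the NRF1 motif. The CCAAT box CCAAT was in Cs, Idh3b, Ogdh and Fh1 (37.5% of genes), and the GC box GGGCGG was in Cs, Ogdh, Sucla2, Fh1 and Mdh2 (35.4% of genes). The ERR core AAGGTCA was in 0 members and in 4.70% of genes. A match describes letters only, and the motifs were chosen after the promoters were seen, so setting the members beside these shares is no test. No motif searched overlapped another in the printed windows, and Ogdh, with several starts, had several windows in which a motif could occur. The 3 members with an NRF1 motif did not share a sign of difference (HFM minus HFS), which was above 0 for Idh3g and Ogdh and below 0 for Sucla2.

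Over the probe sets with a gene symbol, values ran from 1.68 to 14.06 and array medians lay between 4.59 and 4.69. Over the same probe sets, pairs of arrays correlated at 0.979 to 0.995. HFM3 had the lowest median correlation with the other arrays (0.986), and values without it are given where they matter. Of 23410 probe sets with a gene symbol, limma found 0 (0%) at an adjusted p under 0.05, and the smallest adjusted p was 0.305. At an unadjusted p under 0.05, limma found 836 probe sets higher in HFM livers (3.57%) and 678 lower (2.90%), and an unmoderated test found 1440 in both directions together and 0 after adjustment. The study's methods cut at a p under 0.01, then apply a Bonferroni correction and a filter on 1.2-fold. The cut on p and the fold, used here without the Bonferroni step and called the uncorrected filter, were passed by 163 (0.696%). A Bonferroni p is never below the Benjamini-Hochberg p, so with that step limma leaves 0. In 13 probe sets (0.0555%) the HFM and HFS values did not overlap.

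Against this background, 0 members passed the adjusted threshold and 0 passed the uncorrected filter. The groups overlapped in all 9. At an unadjusted p under 0.05, 1 member was higher in HFM livers, Idh3g, a regulatory subunit of isocitrate dehydrogenase, and 0 were lower. The difference was above 0 for 8 members and below 0 for Sucla2, a subunit of succinate-CoA ligase. Over all tested probe sets 51.4% had a difference above 0, and 58.4% of the brighter probe sets, those above the median level, to which all 9 members belong. The median difference of the members was 0.12 on the log2 scale, against 0.00 over all tested probe sets and 0.02 over the brighter ones. Without HFM3 the median of the members was 0.07.

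**Figure D1:**
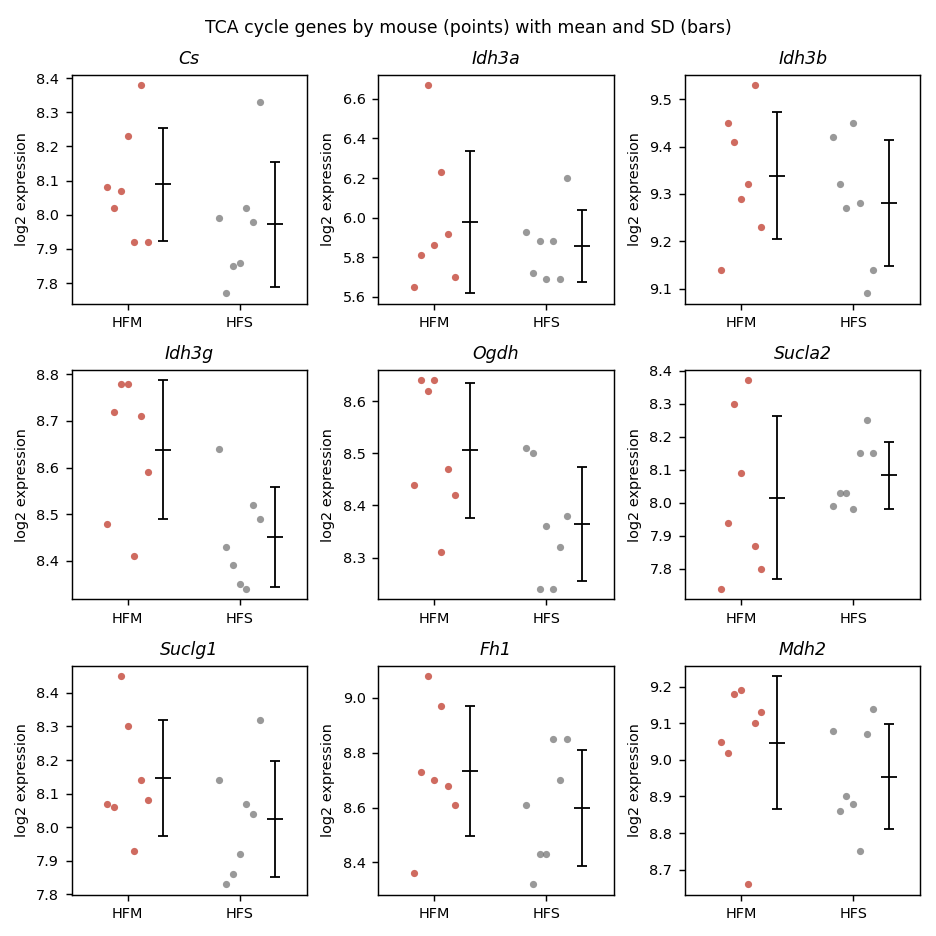
Log2 expression (vertical axes, each with its own range) of the 9 members in each HFM (left, red) and HFS (right, grey) liver, 7 mice per group, with points for mice in the order of their numbers and bars for the mean and SD. The groups overlap in every panel, and 4 of the 7 HFM values of Idh3g lie above every HFS value.

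Cs encodes citrate synthase, which condenses acetyl-CoA with oxaloacetate (probe set 10367292). Its log2 expression in HFM livers was lowest at 7.92, had a median of 8.07 and was highest at 8.38, against 7.77, 7.98 and 8.33 in HFS livers. The groups covered much the same range, with HFM6 and HFS7 the highest of their groups, and the HFS mean was exceeded in 5 of 7 HFM mice. The means were 8.09 ± 0.17 in HFM and 7.97 ± 0.18 in HFS livers (SD, n = 7 each). The difference was 0.12 (SE 0.09, 95% interval −0.07 to 0.30), or 1.09-fold with an interval of 0.954 to 1.23, at an adjusted p of 0.835 from limma. The exact two-sided permutation test over all 3432 assignments of the mice gave p = 0.231, where 5.8e-04 is the smallest p it allows. Leaving out HFS7 moved the difference to 0.18 (limma, unadjusted p = 0.0401, adjusted p = 0.765), and leaving out HFM6 moved it to 0.07 (unadjusted p = 0.425). Leaving out HFM3 left it at 0.12. Csl, a citrate synthase-like gene with a probe set of its own, had means of 4.51 ± 0.13 in HFM and 4.51 ± 0.13 in HFS livers, and whether the probes of Cs also detect it was not tested.

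The second group of members forms NAD-dependent isocitrate dehydrogenase, which converts isocitrate to 2-oxoglutarate with a catalytic subunit from Idh3a and regulatory subunits from Idh3b and Idh3g. Idh3g (probe set 10605090) had the largest difference of the 9 members. Its values in HFM livers were 8.41, 8.71 and 8.78 (lowest, median and highest), against 8.34, 8.43 and 8.64 in HFS livers. HFM2, HFM3, HFM4 and HFM6 lay above every HFS mouse, and the HFS mean was exceeded in 6 of 7 HFM mice, HFM5 being the exception. The means were 8.64 ± 0.15 in HFM and 8.45 ± 0.11 in HFS livers (SD, n = 7 each), which puts the difference at 0.19 (SE 0.07, 95% interval 0.03 to 0.34) or 1.14-fold. limma gave an unadjusted p of 0.0196 and an adjusted p of 0.767, and the exact permutation p was 0.0239. The unadjusted p ran from 0.00523 to 0.0459 when each mouse was left out in turn, with differences of 0.16 to 0.23.

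The catalytic subunit Idh3a (probe set 10585417) varied most between HFM mice. It had 5.65, 5.86 and 6.67 (lowest, median and highest) in HFM livers, against 5.69, 5.88 and 6.20 in HFS livers. The highest value belonged to HFM3, and the median was slightly lower in HFM livers although the mean was higher. The means were 5.98 ± 0.36 in HFM and 5.86 ± 0.18 in HFS livers, which puts the difference at 0.12 (SE 0.13, 95% interval −0.16 to 0.40, limma adjusted p = 0.893). Without HFM3 the difference of Idh3a was 0.00, and without HFS7 it was 0.18. Idh3b (probe set 10487629) had 9.14, 9.32 and 9.53 in HFM livers, against 9.09, 9.28 and 9.45 in HFS livers. The groups overlapped over nearly their whole range, and the difference was 0.05 (SE 0.07, 95% interval −0.10 to 0.21, limma adjusted p = 0.917). Leaving out 1 mouse moved that of Idh3b to between 0.02 (without HFM6 or HFS6) and 0.09 (without HFM1). Thus only 1 of the 3 subunits had an unadjusted p under 0.05.

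Whether the subunits of one enzyme moved unequally was tested on the log2 ratio of their probe sets within each array, an addition made after the values had been seen. Over the 9 pairs of measured subunits in the 3 multi-subunit enzymes with members here, the exact permutation p adjusted over the pairs ran from 0.353 to 0.844. The ratio of Idh3b to Idh3g was 0.13 lower in HFM livers, with a change of −0.13 (SE 0.08, 95% interval −0.32 to 0.05, exact p = 0.140), and that of Idh3a to Idh3g changed by −0.07 (SE 0.15, interval −0.40 to 0.26, exact p = 0.663). An unequal change of the isocitrate dehydrogenase subunits was therefore not shown, and the intervals do not show an equal one.

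Ogdh encodes the E1 subunit of the 2-oxoglutarate dehydrogenase complex, which produces succinyl-CoA (probe set 10374119). Its values were 8.31, 8.47 and 8.64 (lowest, median and highest) in HFM livers, against 8.24, 8.36 and 8.51 in HFS livers. HFM2, HFM3 and HFM4 lay above every HFS mouse, and HFM5 alone lay below the HFS mean. The means were 8.50 ± 0.13 in HFM and 8.36 ± 0.11 in HFS livers, which puts the difference at 0.14 (SE 0.07, 95% interval −0.01 to 0.29) or 1.10-fold, with a limma p of 0.0588 unadjusted and 0.786 adjusted and an exact permutation p of 0.0548. Without HFM5 the difference was 0.17 (limma, unadjusted p = 0.0222), and without HFM3 it was 0.12 (unadjusted p = 0.105). The other subunits of the complex, Dlst (E2) and Dld (E3), had differences of 0.01 (SE 0.07) and −0.01 (SE 0.09). The ratio of Ogdh to Dlst changed by 0.13 (SE 0.07, 95% interval −0.03 to 0.29, exact p = 0.0921, adjusted p = 0.353).

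Succinate-CoA ligase converts succinyl-CoA to succinate and pairs the alpha subunit from Suclg1 with a beta subunit, from Sucla2 in the ADP-forming enzyme and from Suclg2 in the GTP-forming enzyme. Suclg1 (probe set 10539159) had 7.93, 8.08 and 8.45 (lowest, median and highest) in HFM livers, against 7.83, 8.04 and 8.32 in HFS livers. The groups overlapped apart from HFM3 at the top and some HFS mice at the bottom. The difference was 0.12 (SE 0.09, 95% interval −0.06 to 0.31, limma adjusted p = 0.831, exact permutation p = 0.199), and it was 0.07 without HFM3. Sucla2 (probe set 10416379) had 7.74, 7.94 and 8.37 in HFM livers, against 7.98, 8.03 and 8.25 in HFS livers. Here the HFM mice lay on both sides of the HFS range, with 4 below every HFS mouse and 2, HFM3 and HFM5, above every one. The means of Sucla2 were 8.02 ± 0.25 in HFM and 8.08 ± 0.10 in HFS livers, which puts the difference at −0.07 (SE 0.09, 95% interval −0.26 to 0.13, limma adjusted p = 0.916, exact permutation p = 0.512). Leaving out 1 mouse moved it to between −0.13 (without HFM5) and −0.02 (without HFM1). The ratio of Suclg1 to Sucla2 changed by 0.19 (SE 0.12, 95% interval −0.06 to 0.44, exact p = 0.124, adjusted p = 0.353). The probe set annotated to Suclg2 differed by 0.08 (SE 0.07). Whether it reads Suclg2 itself or a related copy could not be checked without probe positions, and this limit also holds for its ratios to Suclg1 and Sucla2.

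Fh1 encodes fumarase, which hydrates fumarate to malate (probe set 10360443). It had 8.36, 8.70 and 9.08 (lowest, median and highest) in HFM livers, against 8.32, 8.61 and 8.85 in HFS livers. HFM3 and HFM5 were the highest of all mice, while HFM1 and HFS2 were the lowest of their groups. The difference was 0.14 (SE 0.11, 95% interval −0.09 to 0.36, limma adjusted p = 0.840, exact permutation p = 0.273) and ran from 0.08 (without HFM3) to 0.20 (without HFM1) when 1 mouse was left out. Mdh2, mitochondrial malate dehydrogenase, regenerates oxaloacetate (probe set 10526381). It had 8.66, 9.10 and 9.19 in HFM livers, against 8.75, 8.90 and 9.14 in HFS livers. The HFS mean was exceeded in 6 HFM mice, and HFM5 lay below every HFS mouse. The means of Mdh2 were 9.05 ± 0.18 in HFM and 8.95 ± 0.14 in HFS livers, which puts the difference at 0.09 (SE 0.09, 95% interval −0.09 to 0.27, limma adjusted p = 0.869, exact permutation p = 0.311). Without HFM5 it was 0.16 (limma, unadjusted p = 0.0420, adjusted p = 0.551), and without HFS5 it was 0.06.

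**Figure D2:**
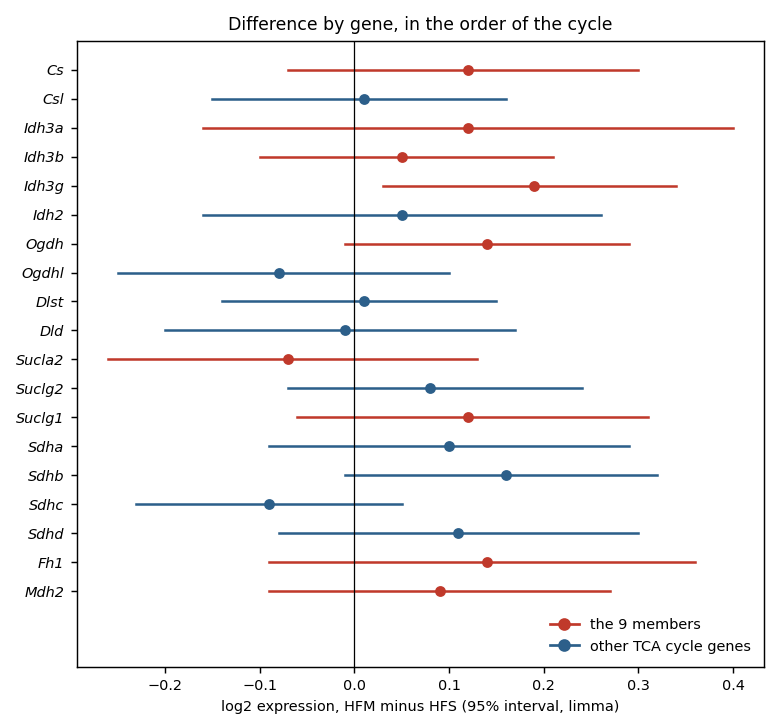
Difference in log2 expression, HFM minus HFS (horizontal axis), with 95% intervals from limma (7 mice per group) for the 9 members (red) and 10 other TCA cycle genes (blue, the probe set of Suclg2 with the limit given above), in the order of the cycle. The interval of Idh3g, 0.03 to 0.34, is the only one shown that does not include 0, without adjustment for the number of tests.

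Of 10 remaining genes of the cycle analysed here, 7 had a difference above 0 and 3 below, 0 had an unadjusted p under 0.05, and the median difference was 0.03. Succinate dehydrogenase joins the cycle to the respiratory chain. Its subunits had differences of 0.10 (SE 0.09) for Sdha, 0.16 (SE 0.08) for Sdhb and 0.11 (SE 0.09) for Sdhd. That of Sdhc was −0.09 (SE 0.07). The interval of each subunit included 0, and whether these subunits moved unequally was not tested. For Sdhb the means were 8.70 ± 0.14 in HFM and 8.54 ± 0.15 in HFS livers (limma, unadjusted p = 0.0616, adjusted p = 0.786). The cytosolic counterparts Aco1, Idh1, Mdh1, Acly and Me1 had differences of 0.02 to 0.12, with 0 of 5 at an unadjusted p under 0.05.

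Among genes of pyruvate entry, 12 of 13 were measured, 8 had a difference above 0, and 1 was higher at an unadjusted p under 0.05. That gene was Pcx, pyruvate carboxylase, which makes oxaloacetate from pyruvate, with means of 9.05 ± 0.19 in HFM and 8.84 ± 0.18 in HFS livers, 0.21 apart (SE 0.09, limma unadjusted p = 0.0362, adjusted p = 0.770). The pyruvate dehydrogenase E1 subunits had differences of 0.12 (SE 0.09) for Pdha1 and −0.17 (SE 0.12) for Pdhb. Of 14 genes that feed or drain the cycle or carry its intermediates, 13 were measured, and of these 2 were higher and 1 was lower at that threshold. Over all tested probe sets, 3.57% were higher and 2.90% lower at that threshold. The dicarboxylate carrier Slc25a10 averaged 8.97 ± 0.18 in HFM and 8.70 ± 0.32 in HFS livers (log2 difference 0.28, SE 0.12, limma unadjusted p = 0.0349, adjusted p = 0.770). The 2-oxoglutarate and malate carrier Slc25a11 averaged 7.35 ± 0.22 in HFM and 7.15 ± 0.14 in HFS livers (log2 difference 0.21, SE 0.09, limma unadjusted p = 0.0407, adjusted p = 0.770). Pck2, mitochondrial phosphoenolpyruvate carboxykinase, was the lower one, at 5.11 ± 0.20 in HFM and 5.29 ± 0.12 in HFS livers (log2 difference −0.18, SE 0.08, limma unadjusted p = 0.0488, adjusted p = 0.772). Of these genes, 0 passed the adjusted threshold.

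A list of mitochondrial content and biogenesis held 16 genes, all measured, of which 8 had a difference above 0, 8 below, and 0 an unadjusted p under 0.05. Its median was 0.00 after rounding. Ppargc1a, a coactivator of mitochondrial biogenesis, differed by 0.16 (SE 0.14) and Tfam, which packages mitochondrial DNA, by −0.06 (SE 0.10). Nrf1 differed by −0.14 (SE 0.08, limma unadjusted p = 0.0954, adjusted p = 0.797), and Vdac1, a channel of the outer membrane, by 0.01 (SE 0.09).

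Markers of cell types were read from the same arrays. Hepatocyte markers averaged 11.55 to 11.81 per mouse in HFM and 11.61 to 11.77 in HFS livers, with Alb at 13.43 ± 0.05 in HFM and 13.52 ± 0.06 in HFS livers, and 0 of 7 had an unadjusted p under 0.05. Markers of Kupffer cells and macrophages all had a difference above 0 (11 of 11, median 0.31), and an unadjusted p under 0.05 was found for 5, Mpeg1, Cd5l, C1qb, Cd68 and Marco. Over all tested probe sets 51.4% had a difference above 0, and 58.4% of the brighter ones. At that p, 3.57% of all were higher and 2.90% lower. Of the 11 Kupffer cell and macrophage markers, 0 passed the adjusted threshold. Their mean per mouse ran from 6.76 to 7.80 in HFM and from 6.52 to 7.54 in HFS livers, and the dimmest, Marco, averaged 5.67 over all mice. Their part in the differences of the TCA cycle genes was not tested. Among the other lists, neutrophil markers had 0 of 5 at that threshold (median 0.24, with HFM2 at a mean of 5.69 against 3.58 to 3.99 in the other HFM mice and 3.53 to 4.61 in HFS mice), endothelial markers 0 of 5, cholangiocyte markers 0 of 4, muscle markers 0 of 3 (median −0.12), adipocyte markers 0 of 2 and the erythroid gene Alas2 did not pass. Stellate cell markers had 1 higher of 6 (Col1a2), and T and B cell markers had 1 lower of 6 (Cd79a, median of the list −0.02). Cd79a was dim, at 3.18 ± 0.25 in HFM and 3.42 ± 0.16 in HFS livers, below every array median. The dimmest neutrophil, T and B cell, adipocyte, muscle and cholangiocyte markers averaged 2.88, 2.90, 2.87, 3.36 and 3.66 over all mice. In whole liver RNA, a change in the number of cells of a type and a change in RNA per cell cannot be told apart.

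Individual mice differed in how the members moved together. In HFM3 all 9 members lay above their mean over the 14 mice, by 0.28 on average, most for Idh3a (0.76), Fh1 (0.41) and Suclg1 (0.36). In HFS3 all 9 lay below, by −0.13 on average. HFM5 was divided, with Sucla2 at 0.32, Fh1 at 0.31 and Idh3a at 0.31 above their means and Mdh2 at −0.34, Suclg1 at −0.15, Idh3g at −0.14, Ogdh at −0.12 and Cs at −0.11 below. The mice with the highest Cs differed again. HFM6 was 0.35 and HFS7 was 0.30 above the mean of Cs, and for Idh3b they were at 0.22 and −0.17.

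**Figure D3:**
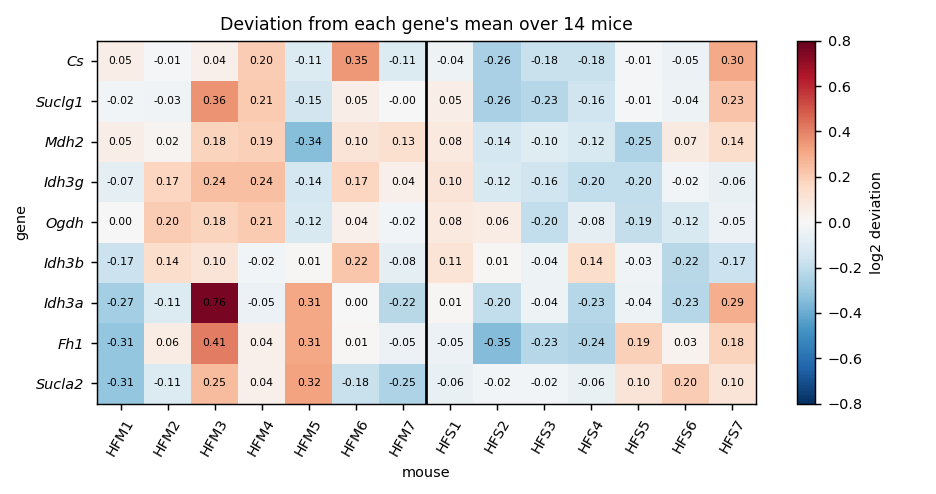
Deviation of each member (rows) from its mean over 14 mice in each mouse (columns, HFM left and HFS right of the line), in log2 units given in the cells and as colour. HFM3 is above the mean in every row, HFS3 below it in every row, and HFM5 is above it for Idh3a, Fh1 and Sucla2 and below it for Mdh2.

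Correlations between members were computed for all 36 pairs over the 14 mice, with two-sided permutation tests (100000 permutations) adjusted over the pairs. Both values of a pair come from the same RNA and array. Of these, 8 pairs had an adjusted p under 0.05, each with r above 0, and 4 had one by rank. The median r was 0.33 and 6 pairs had r below 0, the lowest at −0.29 between Sucla2 and Mdh2.

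Idh3g and Ogdh, which belong to enzymes of successive steps, had the highest correlation, with r = 0.85 (permutation p = 1.9e-04, adjusted p = 0.00360) and rho = 0.83 (permutation p = 4.4e-04, adjusted p = 0.00732). It was 0.90 within HFM and 0.61 within HFS livers, and 0.76 without HFM3 and HFM4, the mice farthest from the median of Idh3g. Idh3g and Mdh2 correlated at r = 0.77 (permutation p = 0.00149, adjusted p = 0.0179) and rho = 0.80 (permutation p = 0.00107, adjusted p = 0.00963), with 0.77 within HFM and 0.81 within HFS livers and 0.69 without the farthest mice. Cs and Suclg1 correlated at r = 0.73 (permutation p = 0.00346, adjusted p = 0.0249) and rho = 0.84 (permutation p = 3.7e-04, adjusted p = 0.00732). This pair was at 0.40 within HFM and 0.96 within HFS livers, and at 0.82 without HFM6 and HFS7.

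At an adjusted p under 0.05, Idh3a, Fh1 and Sucla2 were joined only with each other. That grouping depends on the cut, which Suclg1 narrowly missed with 2 of them. Suclg1 was at r = 0.63 with Fh1 (permutation p = 0.0140, adjusted p = 0.0559) and at 0.61 with Idh3a (permutation p = 0.0187, adjusted p = 0.0674). Idh3a and Fh1 correlated at r = 0.80 (permutation p = 2.0e-04, adjusted p = 0.00360) and rho = 0.66 (permutation p = 0.0120, adjusted p = 0.0619), and at 0.61 without HFM3 and HFM5. Sucla2 and Fh1 were at r = 0.69 (permutation p = 0.00602, adjusted p = 0.0310) and rho = 0.68 (permutation p = 0.00931, adjusted p = 0.0619). This pair was at 0.53 without HFM1 and HFM5, the mice farthest from the median of Sucla2. Idh3a and Sucla2 were at r = 0.65 (permutation p = 0.00976, adjusted p = 0.0439) and rho = 0.57 (permutation p = 0.0356, adjusted p = 0.128), with 0.85 within HFM but 0.11 within HFS livers. Their r was 0.37 without HFM3 and HFM5, the mice farthest from the median of Idh3a, so that relation rests largely on HFM3 and HFM5. The remaining pairs past the threshold were Suclg1 with Mdh2 (r = 0.73, permutation p = 0.00308, adjusted p = 0.0249, and rho = 0.82, permutation p = 6.1e-04, adjusted p = 0.00732) and Suclg1 with Idh3g (r = 0.71, permutation p = 0.00484, adjusted p = 0.0290, and rho = 0.67, permutation p = 0.0109, adjusted p = 0.0619). The pair of Suclg1 and Mdh2 was at 0.69 without HFM3 and HFS7, the mice farthest from the median of Suclg1. That of Suclg1 and Idh3g was at 0.49 without HFM3 and HFM4, the farthest for Idh3g. The median r to the other members was highest for Suclg1 (0.62) and was 0.06 for Idh3b and −0.07 for Sucla2.

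**Figure D4:**
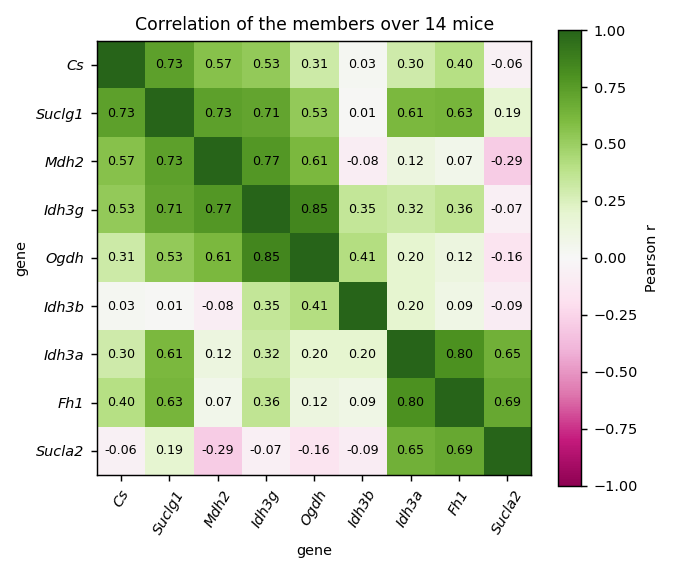
Pearson r (number and colour) between the members over 14 mice (7 HFM and 7 HFS), with genes on both axes in one order. Idh3g and Ogdh reach 0.85 and Idh3a and Fh1 reach 0.80, while Sucla2 is near or below 0 with Cs, Mdh2, Idh3g, Ogdh and Idh3b.

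Among 9971 brighter genes, the 5 whose values over the 14 mice were most like those of Cs were Micos10, a subunit of the complex that shapes mitochondrial cristae (r = 0.86), Septin9, a cytoskeletal GTPase (0.85), Anxa5, a phospholipid-binding protein (0.85), Mycbp (0.85) and C1s1, a complement protease (0.83). As a description, the median r of all these genes to Cs was 0.10 and 95% of them lay under 0.57. With the group means taken out, the r of the 5 was 0.84, 0.83, 0.84, 0.89 and 0.81, in the same order. Only Anxa5 of the 5 had an unadjusted p under 0.05 between the groups (difference 0.50, SE 0.18, limma unadjusted p = 0.0139), while Mycbp differed by 0.00 (SE 0.07). Of the other members, Suclg1 stood at rank 73 (0.73), Mdh2 at 487 (0.57) and Sucla2 at 6776 (−0.06).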

How the data were processed

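Liver RNA of 14 mice was hybridized to 1 array each. Per the labels, the authors summarized the arrays in Affymetrix Expression Console with RMA, whereas the study's methods name PLIER, and the sources used here give neither versions nor a genome build. The deposited values are log2 expression, already normalized between arrays. Groups came from the treatment each label gives and every value column was used (0 left out).

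HFM minus HFS differences were fitted here with limma 3.58.1 (R 4.3.3) over the 23410 of 35556 probe sets with a gene symbol, without a filter on signal or a covariate, and p values were adjusted by Benjamini and Hochberg over all of them. The Bonferroni step of the study's methods was not part of the filter counted here. Intervals are 95%. Exact tests (two-sided) and correlations used Python 3.11.15 and scipy 1.17.1. Mice are the replicates, and their number limits the precision. Arrays have no sequencing depth to report. Named genes were the members, up to 4 genes with the smallest p of each further list, and the 5 genes most correlated with Cs. Csl, Dlst, Dld, Sdha, Me1, Tfam, Vdac1 and Marco lie outside this rule and were named after their values were seen, and the motifs were chosen after the promoters were seen. The members and lists were chosen with earlier results of these data known. Promoters came from RefSeq. The same replicate numbers do not pair the mice, as no label ties them. The fit was tested on simulated data. Alternatives were the replicate block, quantile normalization, median centring, brighter probe sets only, array weights, a trended and robust prior, all probe sets, an unmoderated test, 1 probe set per gene and each mouse left out.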

Additional observations from a re-analysis of the deposited data

Results flagged for a closer look

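Mdh2 in HFM5 was 8.66 on the log2 scale, the lowest of the HFM group and far from the other 6 HFM mice relative to the range of the group (the gap was 0.684 of that range). The values of the 9 members were examined in both groups, 7 mice each, and chance alone marks about 1 in 20 such sets.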

How the results depend on the processing

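Over the 9 other settings and the 14 fits without 1 mouse, no member changed sign (Idh3a was at 0.00 without HFM3). Idh3g kept an unadjusted p under 0.05 in all of them (limma, or the unmoderated test in that setting), with a difference of 0.16 to 0.21 over the settings. The adjusted p of Cs stayed above 0.05 throughout, with a difference of 0.08 to 0.16 over the settings and 0.07 to 0.18 without 1 mouse, the lowest (0.07) without HFM6 and the highest (0.18) without HFS7. The members higher at an unadjusted p under 0.05 numbered 2 with each array's median subtracted, with array weights and with an unmoderated test. There Ogdh joined Idh3g, at an unadjusted p of 0.0378 and 0.0338 from limma and of 0.0491 from the unmoderated test. In the other 6 settings Ogdh had an unadjusted p of 0.0597 to 0.111 (limma). The highest was with quantile normalization, where every member's difference was lower than in the fit reported above. Ogdh then differed by 0.11, and the median of the members was 0.08, against 0.12. At an unadjusted p under 0.05, 836 probe sets were higher in the fit reported above. The higher ones numbered 1265 with each array's median subtracted, 1045 with array weights and 766 with an unmoderated test. Members past that threshold numbered 1 to 3 without 1 mouse. They were 3 without HFM5 (Idh3g, Ogdh and Mdh2) and 2 without HFM7, HFS1, HFS2 or HFS7. Probe sets higher at that threshold numbered 1265 without HFM5, 1235 without HFM7, 802 without HFS1, 715 without HFS2 and 818 without HFS7. With all mice such probe sets numbered 836. The filter at an unadjusted p under 0.01 and 1.2-fold, without the study's Bonferroni step, was passed by 102 probe sets among brighter probe sets only, 75 with an unmoderated test, 254 with all probe sets, and 92 (without HFM2) to 359 (without HFM5) without 1 mouse, with 346 without HFM7. At an unadjusted p under 0.05 there were 749 among brighter probe sets only and 1082 (without HFM2) to 2465 (without HFM7) without 1 mouse. Past an adjusted p of 0.05 there were 0 to 1 without 1 mouse, the 1 without HFS6. Subtracting each array's median moved the median of all differences by 0.03, and 76.1% of the probe sets at an unadjusted p under 0.05 were then higher in HFM livers, against 55.2%. Among brighter probe sets only it was 71.0%. With the replicate number as a block, Cs differed by 0.12 (limma unadjusted p = 0.238), Idh3g by 0.19 (unadjusted p = 0.0365), 1 member was higher and 1324 probe sets had an unadjusted p under 0.05. Same-numbered mice deviated together at correlations of −0.20 to 0.14 and 0 of 7 correlated best with their own number. The block changed no call of a member. It is no paired design, as no label ties same-numbered mice. The cause of these shifts was not tested. Averaging the probe sets of a gene was not run, since each member has 1.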
